A study of Mus musculus with 622 samples.

Results

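The 33 genes described here encode the enzymes of cholesterol and fatty acid synthesis in the mouse embryo, together with the proteins that control them. They were chosen by name as a pathway, and all 33 are listed among the 23845 genes of the count tables. By role they comprise 7 enzymes of the mevalonate segment (Acat2, Hmgcs1, Mvk, Pmvk, Mvd, Idi1, Fdps) and 10 enzymes from squalene to cholesterol (Fdft1, Sqle, Lss, Cyp51, Tm7sf2, Nsdhl, Hsd17b7, Ebp, Sc5d, Dhcr7). Another 6 belong to the SREBP control system (Srebf1, Srebf2, Scap, Insig1, Insig2, Mbtps1), and Stard4 carries sterol between membranes. The remaining 5 enzymes of fatty acid synthesis (Acly, Acss2, Acaca, Fasn, Elovl6) and 4 desaturases (Scd1, Scd2, Fads1, Fads2) complete the set.

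Cells build cholesterol from acetyl-CoA through mevalonate, farnesyl diphosphate and squalene, and build fatty acids from the same acetyl-CoA. Both branches are controlled by the SREBP transcription factors, which sit in the endoplasmic reticulum bound to SCAP. When sterol is low, SCAP escorts SREBP to the Golgi, where proteases release its active part. When sterol is high, the INSIG proteins hold SCAP and SREBP back. The oocyte hands mRNA and lipid stores to the embryo, and the embryo's own genome takes over transcription during the first cleavages.

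The study asked how 2 sperm microRNAs, given to the zygote in measured amounts, alter gene expression in the early embryo. The oocytes came from FVB/NJ females 5 to 7 weeks old and the sperm from males 8 to 12 weeks old. They were activated chemically without sperm to give parthenotes, which hold maternal chromosomes only, or fertilized in vitro. Tested embryos were injected in the cytoplasm with 1 of these microRNAs, miR-200c-3p or else miR-465c-3p, in synthetic form, and controls received GFP, so that every embryo described here had been injected. Embryos were sequenced one by one, late 2-cell embryos at 28 hours, 4-cell embryos at 46 hours and compacted morulae at 70 hours. The low dose was about 200 molecules, and the size of the mid and high doses, of the dose in fertilized embryos and of the 2-cell miR-465c-3p dose is not given in the sources used here.

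In parthenotes of the miR-200c experiment there were 26 low-dose, 23 mid-dose and 28 control embryos at the 2-cell stage. The 4-cell stage had 23 low-dose, 22 mid-dose, 24 high-dose and 24 control embryos, and the morula stage had 24, 19 and 19 injected embryos of the same doses and 20 controls. Fertilized embryos injected with miR-200c-3p numbered 21 at the 4-cell stage, against 21 controls, and 23 at the morula stage, against 23 controls. In parthenotes of the miR-465c experiment there were 21 injected and 22 control embryos at the 2-cell stage, 24 low-dose, 16 high-dose and 23 control embryos at the 4-cell stage, and 29 low-dose, 28 high-dose and 22 control morulae. Another 93 parthenotes at the 2-cell stage carried the Ago-REMORA assay, in which an RNA editor is fused to AGO2, the effector protein loaded with microRNAs. Eggs of about 5 females were pooled for each experimental replicate, and no label ties an embryo to a female or a day.

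Total expected counts ran from 404357 to 6774824 per embryo with a median of 3118638, so genes under about 10 CPM, the usual count unit scaled to an equal total in every embryo, rest on few counts. The level of a gene in an embryo is given below as CPM with library sizes scaled by the TMM method within the fit named. The stage labels were checked against marker lists. The summed level of 7 oocyte transcripts in parthenote controls of the miR-200c experiment had a median of 3908 CPM at the 2-cell stage, 351 CPM at the 4-cell stage and 30.7 CPM in morulae, while 7 morula genes had medians of 181, 386 and 4223 CPM. Markers of cumulus and granulosa cells, which surround the oocyte, had median summed levels of 5.18 CPM or less in every control group. In 2 control morulae the pathway stood apart from the rest, replicate 1 of the miR-200c experiment and replicate 24 of the miR-465c experiment. The first had a summed morula marker level of 399 CPM, against 872 CPM or more in the others. It had counts for 11136 genes, where another morula of its group had 9526. The second had counts for 9636 genes, against 10220 or more, but the highest summed morula marker level of its group, 7902.5 CPM. Both were singled out by their levels of members, so results without them are not an independent check. Results on these groups are given with and without them where a count of members changed.

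The sequences of the injected microRNAs (RefSeq, mm10) and the places in the members' 3′ UTRs that pair with their seeds are shown first, because the injection results below are read against them. Capitals in the microRNA mark the seed, bases 2 to 8.
miR-200c-3p (chr6:124718324-124718346, minus strand): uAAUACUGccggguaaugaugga
miR-465c-3p (chrX:66825965-66825986, minus strand): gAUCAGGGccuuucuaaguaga

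Of the 33 members, 5 had a match to the miR-200c-3p seed in their longest annotated 3′ UTR, which is 15.2% of them, against 13.4% of the 19278 genes with a 3′ UTR. A match to the miR-465c-3p seed was present in 2 members, 6.06%, against 8.31% of genes. Member 3′ UTRs had a median length of 1498 bases, against 1002 bases over all genes. The matched bases are in capitals, CAGTATT for miR-200c-3p and CCCTGAT for miR-465c-3p, and every sequence is written 5′ to 3′ on the strand of its gene (mm10). None of them has an A opposite base 1 of the microRNA. A match describes the letters and does not show that the site is used.
Sqle, miR-200c-3p (chr15:59331128-59331156, plus strand): tcttttgatttCAGTATTtggggtgactc
Hsd17b7, miR-200c-3p (chr1:169950437-169950465, minus strand): tctgttagaagCAGTATTtctcaccttta
Acaca, miR-200c-3p (chr11:84399868-84399896, plus strand): catacccgattCAGTATTtattagcccag
Scd1, miR-200c-3p (chr19:44397780-44397808, minus strand): ctattccggtaCAGTATTcttataaaatg
Scd1, miR-200c-3p (chr19:44395852-44395880, minus strand): aaacatcacatCAGTATTttagaaccatc
Scd2, miR-200c-3p (chr19:44303314-44303342, plus strand): ccattctggtaCAGTATTgtaaaacggac
Scd2, miR-200c-3p (chr19:44306443-44306471, plus strand): atactgtgactCAGTATTctgtgaaactg
Scd2, miR-465c-3p (chr19:44303420-44303448, plus strand): ctttgctttgtCCCTGATgacctcgtttc
Fads1, miR-465c-3p (chr19:10196287-10196315, plus strand): ccagtggttggCCCTGATtgaaaacctgt
The neighbouring stearoyl-CoA desaturase genes Scd1 and Scd2, which lie on the same chromosome, each held a miR-200c-3p match near the start of the 3′ UTR, at bases 122 and 125 from the stop codon. The letters before the match are alike in the 2 genes and those after it differ.

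Across the stages of control embryos most members rose between the 4-cell stage and the morula, called the second step below. At the first step, between the 2-cell and the 4-cell stage, some members rose and others fell, in shares close to those of all genes. In parthenotes of the miR-200c experiment, 11 of the 32 members tested were higher and 10 were lower at the 4-cell stage than at the 2-cell stage (edgeR's quasi-likelihood test, Benjamini-Hochberg adjusted p under 0.05 over all genes). Over all 11570 genes tested, 35.9% were higher and 37.5% lower. The median member changed by -0.08 and the median gene by -0.04 on the log2 scale. Morulae then had 24 members higher and 1 lower than 4-cell embryos, where 26.4% of all genes were higher and 31.5% lower. The median change was 1.60 for the members and -0.07 for all genes.

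The controls of the other experiments gave like counts for the second step. In parthenotes of the miR-465c experiment 19 of 32 members were higher and 1 was lower in morulae than in 4-cell embryos, against 22.8% and 27.3% of all genes, with a median change of 1.35 for the members and -0.03 for all genes. Without the morula that stood apart in that experiment the counts were 21 higher and 1 lower. In fertilized embryos 27 members were higher and 1 was lower, against 36.7% and 31.9% of all genes, with medians of 1.57 and 0.11. At the first step the miR-465c experiment had 9 members higher and 8 lower at the 4-cell stage than at the 2-cell stage, against 29.6% and 32.2% of all genes, and without the same morula 9 and 6.

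From end to end, 25 members were higher and 3 lower in morulae than in 2-cell parthenotes of the miR-200c experiment (36.9% and 39.9% of all genes), and 21 and 4 in the miR-465c experiment (32.8% and 36.4%). Fertilized 2-cell embryos were not analysed here. Scaling by DESeq2's size factors moved the median change of all genes from the reported -0.04 to -0.31 for 4-cell over 2-cell parthenotes of the miR-200c experiment, and changes at the first step are to be read relative to that shift. Each stage was deposited as a table of its own, and stage and table cannot be told apart. Every level is a share of an embryo's counted RNA, so the number of cells and the RNA per cell cannot be told apart either.

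**Figure D1:**
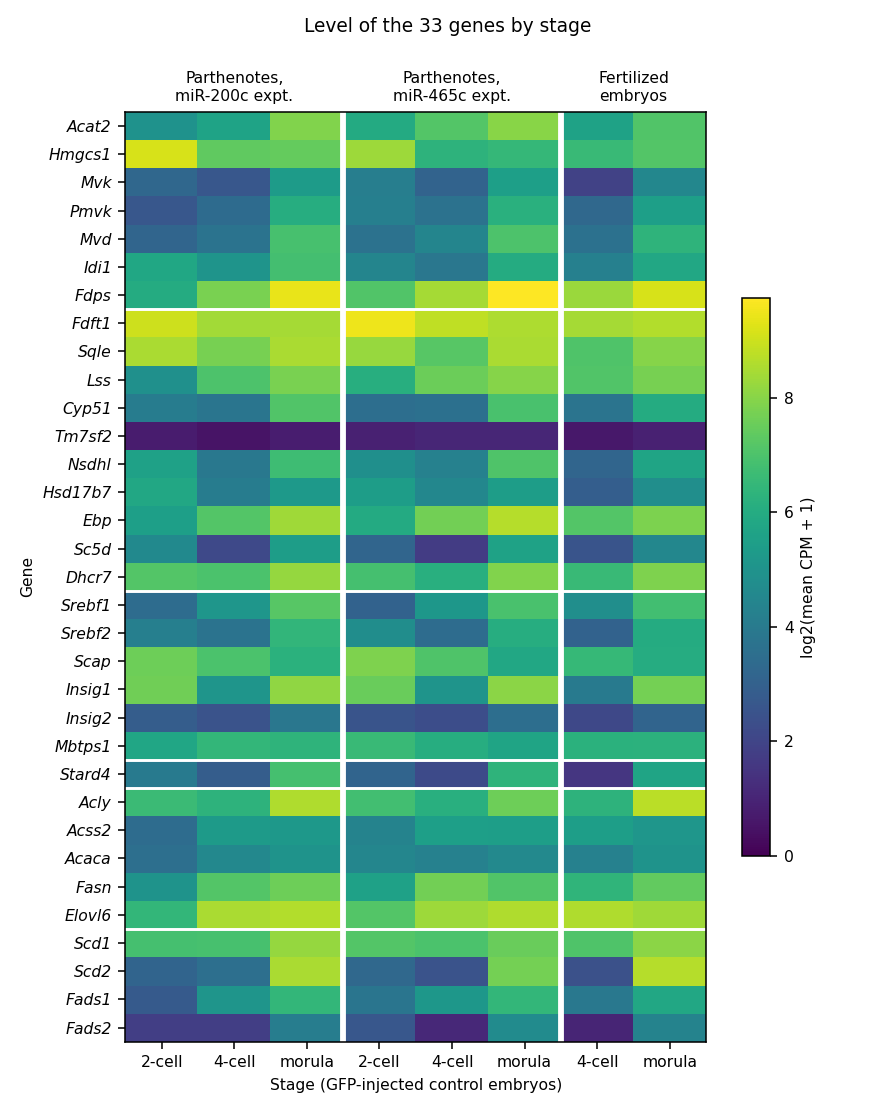
Mean level of each of the 33 members in control embryos, as log2(mean CPM + 1), with 1 row per gene grouped by role and 1 column per stage and experiment. Most rows are brightest in the morula columns, whereas Hmgcs1, Fdft1 and Scap are brightest at the 2-cell stage in parthenotes.

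Summed over the 17 enzymes of cholesterol synthesis, parthenotes of the miR-200c experiment held 1966 ± 336 CPM at the 2-cell stage (SD, n = 28), 1485 ± 296 CPM at the 4-cell stage (n = 24) and 3319 ± 969 CPM in morulae (n = 20). In the miR-465c experiment the same sum was 1947 ± 393, 1738 ± 335 and 3502 ± 1053 CPM at these stages (n = 22, 23 and 22). In fertilized embryos it was 2526 ± 713 CPM in morulae (n = 23), against 1379 ± 163 CPM at the 4-cell stage (n = 21). The 5 fatty acid synthesis enzymes, of which Elovl6 alone held 368 CPM at the 4-cell stage, had summed levels of 237 ± 96.3 CPM at the 2-cell stage, 647 ± 194 CPM at the 4-cell stage and 1035 ± 269 CPM in morulae of the miR-200c experiment. The 4 desaturases held 133 ± 48.9, 166 ± 60.7 and 768 ± 379 CPM at these stages.

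Within the mevalonate segment Hmgcs1 fell at the first step, and the enzymes that act after it rose into the morula. Hmgcs1 (chr13:119690379-119708260 in mm10), the cytosolic synthase that joins acetyl-CoA to acetoacetyl-CoA, ran from 213 to 1022 CPM at the 2-cell stage with a median of 518, from 72.8 to 345 CPM at the 4-cell stage with a median of 148, and from 32.8 to 340.5 CPM in morulae with a median of 164. It fell at the first step by 1.77 ± 0.18 on the log2 scale (SE; adjusted p = 6.1e-14), and morulae differed from 4-cell embryos by 0.08 ± 0.19 (adjusted p = 0.76). The miR-465c experiment gave -2.01 ± 0.28 (adjusted p = 5.1e-09) and 0.18 ± 0.27 (adjusted p = 0.60) at these steps. In fertilized embryos Hmgcs1 was higher in morulae, with 139 ± 56.6 CPM (n = 23), than at the 4-cell stage, with 97.1 ± 49.7 CPM (n = 21), a change of 0.51 ± 0.19 (adjusted p = 0.014).

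Downstream of Hmgcs1 the segment rose into the morula. Mvk and Pmvk phosphorylate mevalonate and Mvd decarboxylates the product. Mvd had 8.03 ± 9.10, 12.3 ± 11.4 and 119 ± 36.9 CPM across the stages of the miR-200c experiment, and its morulae were 9.83-fold above 4-cell embryos (log2 change 3.30 ± 0.56). The changes of Mvk and Pmvk at that step were 2.93 ± 0.65 and 2.77 ± 0.50. Pmvk ran from 25.6 to 133 CPM in morulae, above every 4-cell embryo, of which the highest had 22.6 CPM. At that step 3 of the 30 members reaching 10 CPM showed such a gap, as did 2.29% of genes at that level.

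Acat2, the acetoacetyl-CoA thiolase, and Fdps, which makes farnesyl diphosphate, rose at both steps. Fdps had 21.1 to 120 CPM at the 2-cell stage (median 61.2), 61.7 to 552 CPM at the 4-cell stage (median 197) and 281 to 1384 CPM in morulae (median 590.2). The 2-cell and morula ranges did not overlap. Morulae lay wholly above 2-cell embryos for 6 of the 30 members reaching 10 CPM, and for 12.2% of genes at that level. The log2 changes were 1.79 ± 0.20 and then 1.65 ± 0.21 in this experiment, 1.35 ± 0.20 and 1.31 ± 0.20 in the miR-465c experiment, and 0.89 ± 0.16 between morula and 4-cell stage in fertilized embryos, all past the threshold. Acat2 changed by 0.69 ± 0.21 and 2.28 ± 0.24 in the miR-200c experiment and by 1.21 ± 0.29 and 0.88 ± 0.29 in the miR-465c experiment. Idi1, the isopentenyl diphosphate isomerase, fell at the first step by 0.80 ± 0.30 and was higher in morulae by 1.83 ± 0.32.

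The annotation limits some of these values. Of the 50-base words in Acat2 exons, 39.1% also occur in Acat3, for Idi1 25.3% occur in other genes (mainly the pseudogene Gm13502), for Fdps 26.2% (mainly Gm43738, an overlapping gene on the same strand), and for Acaca 30.4% (mainly the pseudogene Gm5182). Acat3 itself averaged between 0.160 and 1.99 CPM in the control groups. The libraries do not mark strand. Fdft1 shares 774 exon bases with Ctsb on the opposite strand, so the reads of that stretch cannot be told apart. Ctsb had 488 ± 211 CPM at the 2-cell stage, 1280 ± 335 CPM at the 4-cell stage and 204 ± 115 CPM in morulae of the miR-200c experiment. Its part in the Fdft1 levels was not tested.

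From squalene to cholesterol, Fdft1 and Sqle were abundant at the 2-cell stage and fell at the first step, whereas Lss and Ebp rose. Fdft1, the squalene synthase, had 514 ± 97.7 CPM at the 2-cell stage, 336 ± 118 CPM at the 4-cell stage and 348 ± 94.0 CPM in morulae, a fall of 0.61 ± 0.12 followed by a difference of 0.05 ± 0.13 (adjusted p = 0.75). Sqle, the squalene epoxidase, had 362 ± 110, 216 ± 107 and 369 ± 181 CPM. It fell at the first step by 0.75 ± 0.17, was higher in morulae by 0.77 ± 0.18, and from end to end differed by 0.03 ± 0.17 (adjusted p = 0.90), a direction that turned under another scaling. The miR-465c experiment gave -1.04 ± 0.23 and 1.31 ± 0.23 for Sqle.

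Lss, which folds the epoxide into lanosterol, and Ebp, a sterol isomerase, rose at the first step. Lss had 28.8 ± 25.2 CPM at the 2-cell stage, 130 ± 50.0 CPM at the 4-cell stage and 221 ± 66.6 CPM in morulae, with log2 changes of 2.16 ± 0.31 and 0.77 ± 0.33. Ebp had 44.7 ± 21.3, 141 ± 73.9 and 327.5 ± 118 CPM, with changes of 1.65 ± 0.21 and 1.22 ± 0.22. Both rose at the first step of the miR-465c experiment too, by 1.49 ± 0.39 and 1.72 ± 0.24.

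Sc5d, Nsdhl and Hsd17b7 passed through a low at the 4-cell stage of the miR-200c experiment. Sc5d, the lathosterol desaturase, had 24.0 ± 13.4 CPM at the 2-cell stage, 3.39 ± 4.58 CPM at the 4-cell stage and 42.3 ± 16.9 CPM in morulae, with changes of -2.82 ± 0.47 and 3.63 ± 0.51. Nsdhl, a sterol dehydrogenase, had medians of 28.7, 12.3 and 105 CPM, and its lowest morula, with 44.7 CPM, lay above the highest 4-cell embryo, with 33.4 CPM. Of genes reaching 10 CPM, 2.29% showed such a gap. Its changes were -1.73 ± 0.36 and 2.90 ± 0.39. Hsd17b7, a sterol ketoreductase, changed by -1.80 ± 0.40 and 1.199 ± 0.42. The first-step changes in the miR-465c experiment were -1.76 ± 0.43 for Sc5d, which passed, -0.58 ± 0.48 for Nsdhl (adjusted p = 0.30) and -0.95 ± 0.45 for Hsd17b7 (adjusted p = 0.063).

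Cyp51, the lanosterol demethylase, and Dhcr7, which makes cholesterol in the last step, rose only at the second step by the test, and their first-step changes were -0.35 ± 0.40 and -0.16 ± 0.21. Cyp51 had 12.7 ± 12.4 CPM at the 4-cell stage and 138 ± 81.6 CPM in morulae of the miR-200c experiment, a change of 3.44 ± 0.45. In the miR-465c experiment the changes at the second step were 3.45 ± 0.62 for Cyp51 and 1.78 ± 0.36 for Dhcr7, and in fertilized embryos 2.36 ± 0.32 and 1.23 ± 0.16. Tm7sf2, a sterol reductase whose step another enzyme can also take, averaged 0.42 to 1.06 CPM in all 8 control groups and did not pass the filter on low counts.

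**Figure D2:**
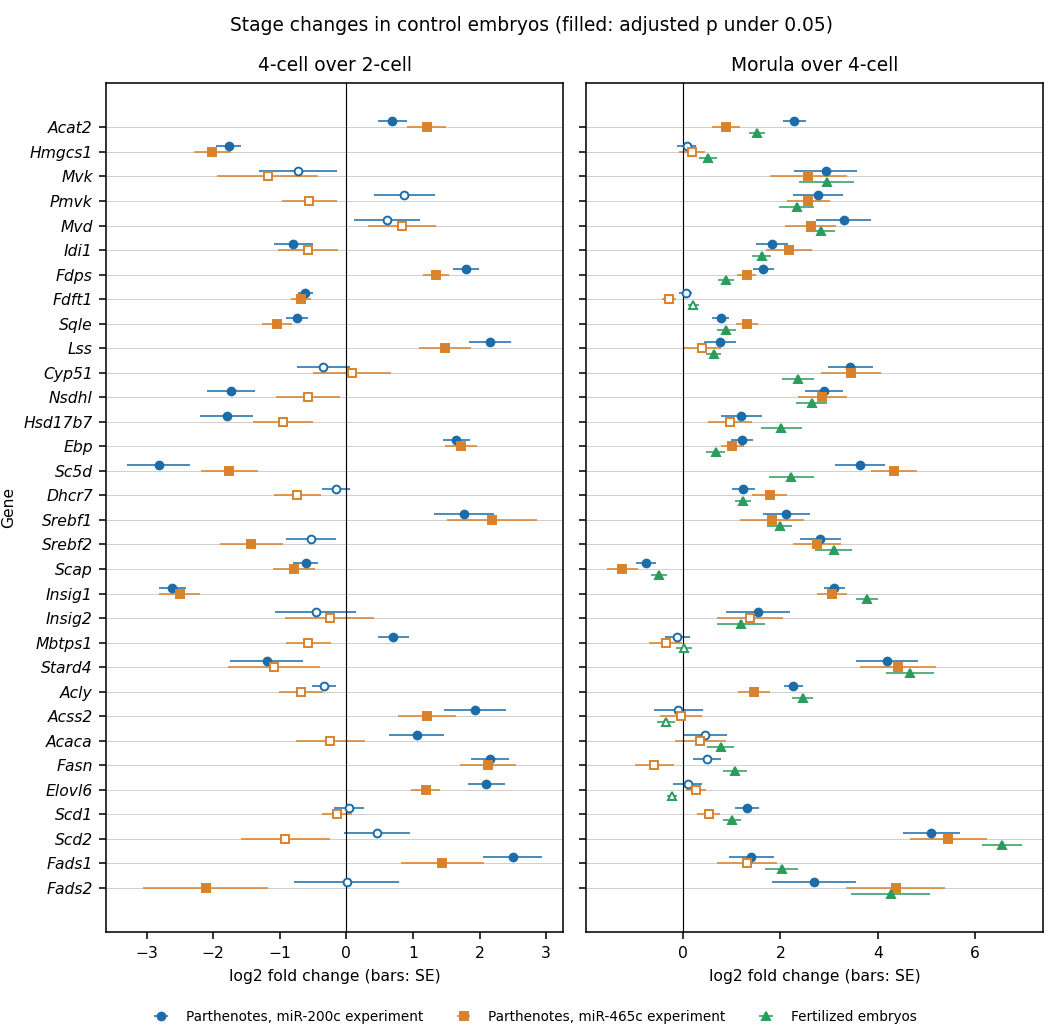
Log2 change of each tested member with its standard error, 4-cell over 2-cell on the left and morula over 4-cell on the right, in the control embryos of the 3 experiments. Filled points passed the adjusted p threshold of 0.05. The left panel spreads to both sides of 0 (from -2.82 for Sc5d to 2.49 for Fads1), and the right panel lies mostly above 0, with Scap below it in each experiment.

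In the control system Insig1 turned at the 4-cell stage. Insig1 (chr5:28071363-28078662), which retains SREBP in the endoplasmic reticulum and is itself a well known SREBP target, ran from 105 to 408 CPM at the 2-cell stage (median 198), from 9.58 to 77.3 CPM at the 4-cell stage (median 29.6) and from 24.5 to 514 CPM in morulae (median 313). Every 4-cell embryo of the miR-200c experiment lay below every 2-cell embryo. Insig1 was the only one of the 30 members reaching 10 CPM with this pattern, which 2.21% of the genes at that level showed. It fell by 2.61 ± 0.21 (adjusted p = 4.5e-19) and was higher in morulae by 3.11 ± 0.22 (adjusted p = 7.2e-21).

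Insig1 made the same turn in the miR-465c experiment, where it changed by -2.505 ± 0.30 and 3.06 ± 0.31. In fertilized embryos, which give the second step only, it ran from 83.7 to 400.04 CPM in morulae (median 188), against 3.75 to 38.7 CPM at the 4-cell stage (median 15.1), with no overlap and a change of 3.77 ± 0.22. Of the 31 members reaching 10 CPM there, 4 had morulae wholly above 4-cell embryos (Insig1, Stard4, Acly and Scd2). The share of genes at that level was 3.24%. The lowest morula value in each parthenote experiment, 24.5 CPM and 43.3 CPM, belonged to the embryo that stood apart, and the next lowest had 92.7 and 89.0 CPM.

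Of the genes of the 2 SREBP proteins, Srebf1 rose at both steps. Srebf1, whose product is best known for fatty acid genes, had 9.81 ± 10.9, 33.7 ± 20.9 and 147 ± 53.3 CPM across the stages of the miR-200c experiment, rising by 1.77 ± 0.45 and again by 2.12 ± 0.48. Srebf2, whose product is best known for sterol genes, had 17.3 ± 9.13, 12.0 ± 12.9 and 85.0 ± 37.1 CPM, with a first-step change of -0.53 ± 0.38 that did not pass the test and a second of 2.82 ± 0.42. In the miR-465c experiment the first-step changes were 2.18 ± 0.68 for Srebf1 and -1.43 ± 0.47 for Srebf2, and both passed.

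Scap, the escort itself, went the other way, with 192 ± 85.2, 126 ± 50.0 and 74.6 ± 26.98 CPM and changes of -0.61 ± 0.19 and -0.75 ± 0.20. In the miR-465c experiment it fell by 0.78 ± 0.31 and then by 1.25 ± 0.32, although the first of these missed the threshold without the morula that stood apart (-0.62, adjusted p = 0.073), without shallow embryos (-0.59, adjusted p = 0.092), with no filter on low counts (-0.57, adjusted p = 0.11) and with a replicate block (-0.39, adjusted p = 0.36). This block groups embryos by the number in their titles, which no label ties to an egg pool. In fertilized embryos Scap was lower in morulae by 0.50 ± 0.16, with 64.5 ± 19.7 CPM against 91.3 ± 39.1 CPM at the 4-cell stage. Mbtps1, the first protease of SREBP release, had 53.5 ± 31.5, 87.1 ± 34.2 and 80.4 ± 27.04 CPM and a first-step change of 0.70 ± 0.23 that was not past the threshold under DESeq2 (0.45, adjusted p = 0.051) or with its size factors in edgeR (0.45, adjusted p = 0.069). Insig2 averaged between 3.37 and 13.6 CPM in all 8 groups. With levels scaled within each stage, it had 4.37 CPM at the 4-cell stage and 12.2 CPM in morulae of the miR-200c experiment. The same pair was 3.83 and 10.1 CPM in the miR-465c experiment, and 3.47 and 7.98 CPM in fertilized embryos.

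Stard4, which moves cholesterol between membranes, was near the counting limit until the morula. In the miR-200c experiment it ran from 0 to 58.2 CPM at the 2-cell stage (median 8.18), from 0 to 29.9 CPM at the 4-cell stage (median 3.33) and from 60.3 to 238 CPM in morulae (median 112). The morula range lay above both earlier ranges. Of genes reaching 10 CPM, 12.2% had morulae wholly above 2-cell embryos and 2.29% wholly above 4-cell embryos. The log2 change from the 4-cell stage was 4.20 ± 0.64 here, 4.42 ± 0.77 in the miR-465c experiment and 4.65 ± 0.49 in fertilized embryos, where morulae had 16.3 to 116 CPM, against 0 to 9.77 CPM at the 4-cell stage.

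Of the 5 fatty acid synthesis enzymes, Elovl6, Fasn and Acss2 rose at the first step in both parthenote experiments. Elovl6, which extends palmitate, ran from 0 to 219 CPM at the 2-cell stage (median 81.9), from 124 to 824 CPM at the 4-cell stage (median 380) and from 187 to 513 CPM in morulae (median 399), with changes of 2.10 ± 0.28 and then 0.10 ± 0.29. Fasn, the fatty acid synthase, had 30.998 ± 24.5, 139 ± 79.9 and 195 ± 78.8 CPM, with changes of 2.15 ± 0.28 and 0.49 ± 0.30. Acss2, which makes acetyl-CoA from acetate, changed by 1.93 ± 0.47 and -0.09 ± 0.49. In the miR-465c experiment the first-step changes of Elovl6, Fasn and Acss2 were 1.19 ± 0.21, 2.13 ± 0.42 and 1.21 ± 0.44.

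Acaca, the acetyl-CoA carboxylase, changed by 1.06 ± 0.41 at the first step of the miR-200c experiment and by -0.24 ± 0.52 in the miR-465c experiment, where it was not past the threshold. Acly, which splits citrate into acetyl-CoA, rose at the second step. It had 99.1 ± 52.4, 78.7 ± 34.1 and 379 ± 157 CPM, with changes of -0.33 ± 0.18 (adjusted p = 0.088) and 2.27 ± 0.20. In fertilized embryos Acly had 166 to 1819 CPM in morulae (median 286), against 32.6 to 133 CPM at the 4-cell stage (median 76.3), and the ranges did not overlap. Morulae lay wholly above 4-cell embryos for 3.24% of genes reaching 10 CPM there.

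Among the desaturases Scd2 made the largest second-step change of the 32 members tested. Scd2 ran from 0 to 30.5 CPM at the 2-cell stage (median 3.68), from 0 to 37.9 CPM at the 4-cell stage (median 7.67) and from 22.5 to 662 CPM in morulae (median 336), a change of 5.09 ± 0.58 between the last 2 stages. Its lowest morula was again replicate 1, and the next lowest had 150 CPM. In the miR-465c experiment the change was 5.45 ± 0.78, with 92.4 to 379 CPM in morulae. In fertilized embryos it was 6.55 ± 0.41, with 401 ± 176 CPM in morulae (n = 23), against 4.33 ± 4.93 CPM at the 4-cell stage (n = 21).

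Scd1, whose product does the same reaction, was already present at the 2-cell stage with 116 ± 47.7 CPM, and had 120 ± 61.998 CPM at the 4-cell stage and 297 ± 161 CPM in morulae. Its second-step change was 1.31 ± 0.25 in the miR-200c experiment, 1.00 ± 0.19 in fertilized embryos and 0.53 ± 0.23 in the miR-465c experiment, where it missed the threshold (adjusted p = 0.051). Fads1, the delta-5 desaturase of polyunsaturated fatty acids, rose at both steps of the miR-200c experiment, by 2.49 ± 0.45 and 1.41 ± 0.47. Fads2, the delta-6 desaturase, averaged 2.48, 2.497 and 16.3 CPM and changed by 2.69 ± 0.86 at the second step.

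**Figure D3:**
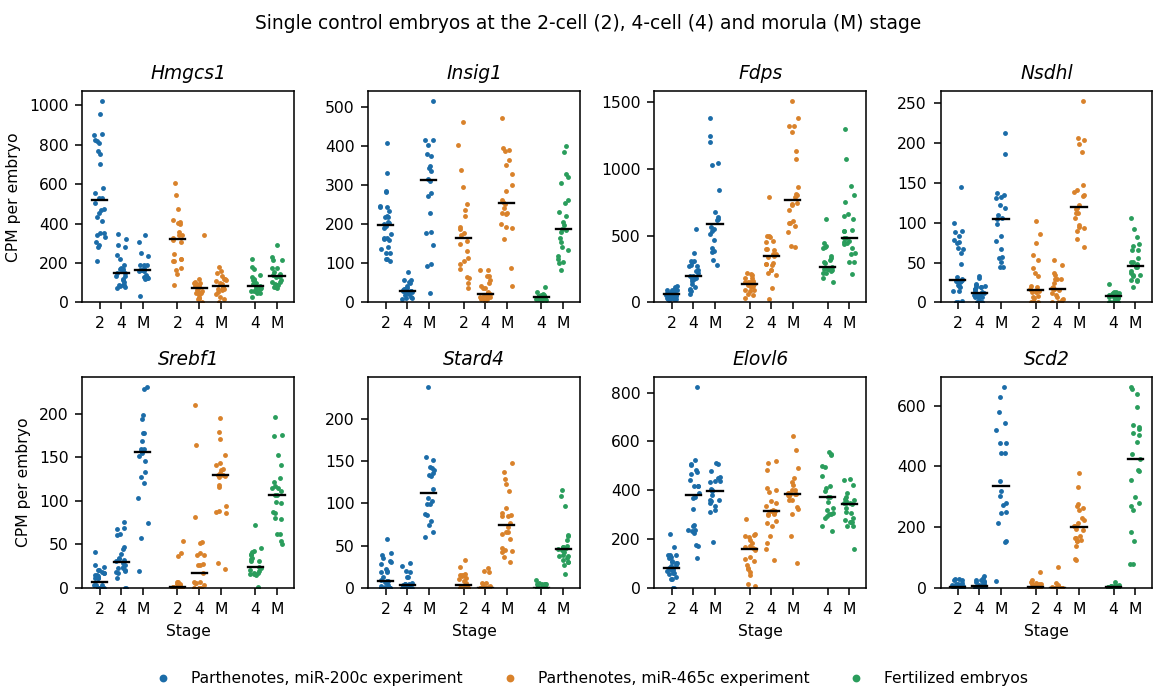
CPM of Hmgcs1, Insig1, Fdps, Nsdhl, Srebf1, Stard4, Elovl6 and Scd2 in single control embryos at the 2-cell (2), 4-cell (4) and morula (M) stages of the 3 experiments. Each point is 1 embryo and each bar the median. Insig1 medians in the miR-200c experiment are 198, 29.6 and 313 CPM, while Elovl6 is already at 380 CPM at the 4-cell stage.

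With levels divided by the merged length of all annotated exons of a gene, the order of the pathway changed across development. This length, 4208 bases for Fdps and 10787 bases for Lss, need not be that of the transcript expressed, so comparisons between genes are rough. In 2-cell parthenotes of the miR-200c experiment Hmgcs1 and Fdft1 led with 123 and 122 CPM per kilobase, followed by Sqle with 65.3 and Insig1 with 64.8. In 4-cell parthenotes Fdft1 led with 79.4 CPM per kilobase, followed by Ebp with 60.9, Elovl6 with 57.3 and Fdps with 51.9. In morulae Fdps led with 163 CPM per kilobase, followed by Ebp with 142, Acat2 with 94.0 and Insig1 with 91.4, while Hmgcs1 had 38.0. The spread over embryos was wide, and neighbours such as Hmgcs1 and Fdft1 at the 2-cell stage, or Fdps and Ebp in morulae, were not tested against each other.

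The promoters of the members were searched for 2 motifs on both strands, in the 250 bases before and 50 after each start site (RefSeq, mm10). The motifs do not overlap. The sterol element TCACNCCAC was present in 1 of the 26 members matched to the promoter table, 3.85%, against 1.44% of 27025 genes. That member is Hmgcs1, shown because its fall at the first step was past the threshold in both parthenote experiments, with the motif in capitals.
Hmgcs1 promoter (chr13:119690204-119690232, plus strand): cgtcaccgtcTCACCCCACttcccaggtc
The NF-Y box CCAAT was present in 20 of 26 members, 76.9%, against 41.1% of genes. A match or its absence says only which letters stand in these windows.

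The course of neighbouring pathways was read from lists of genes that are not members. At the second step of the miR-200c experiment, 3 of 11 other sterol genes tested were higher and 1 was lower in morulae than at the 4-cell stage, where 26.4% of all genes were higher and 31.5% lower. Msmo1, the sterol C4 oxidase, had 24.8 ± 21.96, 36.2 ± 22.3 and 117 ± 32.2 CPM across the stages. Soat1, which esterifies cholesterol, fell by 0.60. Of 17 other fatty acid genes 10 were higher and 3 lower, among them Slc25a1, the mitochondrial citrate carrier, with 15.1 ± 16.2, 2.27 ± 3.92 and 32.2 ± 21.7 CPM.

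Among genes of fatty acid oxidation 11 of 18 were higher and 2 lower at the 4-cell stage than at the 2-cell stage, where 35.9% of all genes were higher and 37.5% lower. Acadl, Acads and Acadm, the acyl-CoA dehydrogenases for long, short and medium chains, rose by 5.41, 4.50 and 3.42 on the log2 scale, and Acadm had 29.2 ± 17.6 CPM at the 2-cell stage and 313 ± 106 CPM at the 4-cell stage. At the second step, with its background of 26.4% and 31.5%, 12 were higher and 3 lower, led by Hadh with 3.49. Among 13 genes of lipid storage and efflux, 7 were higher and 1 lower in morulae, including Plin2, a lipid droplet coat protein, with 61.4 ± 38.8, 18.9 ± 22.5 and 161 ± 49.0 CPM. Me1, which supplies NADPH, fell at the first step by 3.47, with 899 ± 504 CPM at the 2-cell stage and 80.9 ± 66.7 CPM at the 4-cell stage.

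Fertilized and parthenote controls were compared at each shared stage in 1 fit of all 3 control sets, and the levels in this and the next paragraphs are on the scale of that fit. Embryo type and experiment cannot be told apart here. The difference between the parthenotes of the 2 experiments, miR-465c over miR-200c, serves as the size of difference found with the type of embryo held the same. In morulae it held 0 members higher and 6 lower (Acly, Hmgcs1, Idi1, Scd2, Mbtps1 and Stard4, by 0.50 to 0.91), against 7.47% and 10.1% of all genes. At the 4-cell stage it held 3 higher and 4 lower, against 13.5% and 15.3% of genes, with Acat2 highest at 1.53 ± 0.22 and Idi1 lowest at -1.19 ± 0.24.

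In morulae every member past the threshold against parthenotes of the miR-200c experiment was lower in fertilized embryos. Against parthenotes of the miR-200c experiment 0 members were higher and 7 lower, where 6.17% of genes were higher and 7.5% lower. Stard4 had 16.4 to 118 CPM in fertilized morulae (median 46.3), against 54.9 to 219 CPM in parthenote morulae (median 100.3), a difference of -1.04 ± 0.18 (adjusted p = 2.7e-05) with overlapping ranges. Cyp51 differed by -0.95 ± 0.23, Nsdhl by -0.85 ± 0.18, Idi1 by -0.85 ± 0.23, Sc5d by -0.77 ± 0.21 and Acat2 by -0.63 ± 0.18. Mvk differed by -0.67 ± 0.23 and missed the threshold without replicate 21 of the parthenote morulae (-0.57). Without the 2 morulae that stood apart in turn, the counts were 1 higher and 8 lower or 1 higher and 7 lower.

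Against parthenotes of the miR-465c experiment 6 members were higher and 11 lower in fertilized morulae, where 16.2% of genes were higher and 15.4% lower. Nsdhl had 19.997 to 108 CPM in fertilized morulae (median 47.05), against 66.0 to 236 CPM in parthenote morulae (median 114), a difference of -1.30 ± 0.17 (adjusted p = 1.2e-08). Sc5d, Mvk, Cyp51, Acat2 and Stard4 were lower by 0.55 to 1.04. The 2 comparisons share the fertilized embryos, so they are not independent of each other.

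The 6 higher members were Acly, Scd2, Scd1, Acaca, Hmgcs1 and Mbtps1. Acly had 168 to 1827 CPM in fertilized morulae (median 288), against 16.3 to 574 CPM in parthenote morulae of the miR-465c experiment (median 141), a difference of 1.24 ± 0.24 (adjusted p = 2.8e-05). Scd2 differed by 1.05 ± 0.21, Scd1 by 0.61 ± 0.23, Acaca by 0.53 ± 0.15, Hmgcs1 by 0.74 ± 0.21 and Mbtps1 by 0.65 ± 0.16. Against parthenotes of the miR-200c experiment none of the 6 passed, with 0.33 ± 0.24 for Acly and 0.30 ± 0.21 for Scd2. Acly, Scd2, Hmgcs1 and Mbtps1 are also among the genes that differed between the 2 parthenote sets. Scd1 missed the threshold with single embryos left out (0.50 or 0.58). Without the parthenote morula that stood apart, replicate 24, the counts were 5 higher and 13 lower.

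Morula markers also differed between the embryo types. In fertilized morulae 0 of the 7 morula genes were higher and 5 were lower than in parthenotes of either experiment, with median changes of -1.16 against the miR-200c set and -1.32 against the miR-465c set. Between the 2 parthenote sets 0 morula genes were higher and 0 lower, with a median change of 0.10, where 6 members were lower. Summed, the morula genes ran from 521 to 3261 CPM in fertilized morulae on the scale of the stage fits. In the 2 parthenote sets they ran from 399 to 7571 and from 2559 to 7903 CPM. Their part in the differences of the pathway was not tested.

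At the 4-cell stage Insig1 was the member lower in fertilized embryos than in both parthenote sets. Insig1 was lower in fertilized embryos, with 15.5 ± 7.93 CPM, against 31.4 ± 16.3 CPM in parthenotes of the miR-200c experiment (-1.01 ± 0.30, adjusted p = 0.016) and 30.96 ± 24.2 CPM in those of the miR-465c experiment (-0.99 ± 0.30, adjusted p = 0.012). In the first comparison 1 member was higher and 2 lower, where 5.26% of genes were higher and 5.28% lower. These were Fdps (0.61 ± 0.20), Insig1 and Sqle (-0.57 ± 0.18), and under scaling by DESeq2's size factors 0 were higher and 4 lower. DESeq2 itself gave 1 higher and 4 lower. Fdps missed the threshold without fertilized replicate 1 (0.53), and Sqle without parthenote replicate 7 (-0.46). In the second comparison 0 were higher and 3 lower, against 10.7% and 9.6% of genes, namely Acat2 (-1.46 ± 0.23), Fasn (-1.22 ± 0.36) and Insig1, while DESeq2 gave 0 higher and 7 lower and its size factors in edgeR 0 and 5. Fasn missed the threshold without parthenote replicate 23 (-0.76), an embryo with 1380 CPM.

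Whether the stage changes themselves differed between experiments was tested by interaction. Of 32 members, 1 differed in its second-step change between the parthenote experiments, against 4.05% of genes in either direction. Acat2 changed less in the miR-465c experiment, by -1.37 ± 0.31 on the log2 scale (adjusted p = 0.0043), a call lost with a replicate block (-1.49, adjusted p = 0.070). It had 141 ± 74.6 CPM at the 4-cell stage there, against 49.2 ± 29.7 CPM in the miR-200c experiment. No member differed in the first-step change between parthenote experiments (0 of 31, where 6.77% of genes did and 2 members had an unadjusted p under 0.05) or in the second-step change of fertilized embryos minus parthenotes of the miR-200c experiment (0 of 32, where 6.45% of genes did and 6 had an unadjusted p under 0.05).

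Among single morulae of 1 group the median pair of members also varied together from embryo to embryo, though single pairs ranged widely. Over pairs of members with at least 10 CPM on average, the median correlation of log2(CPM + 1) between embryos was 0.35 in parthenote morulae of the miR-200c experiment (n = 20), 0.21 in fertilized morulae (n = 23) and 0.30 in parthenote morulae of the miR-465c experiment (n = 22). Over all gene pairs at that level it lay between -0.001 and 0.046 in the 8 groups. At the 2-cell and 4-cell stages the members' medians lay between -0.02 and 0.11, and the highest of these, in 4-cell parthenotes of the miR-465c experiment, fell to 0.0008 without replicate 22. Leaving out 1 embryo at a time kept the 3 morula medians within 0.32 to 0.40, 0.19 to 0.25 and 0.28 to 0.39. In fertilized morulae Mvd and Pmvk had r = 0.79 and Cyp51 and Sqle r = 0.78, but pairs there ran from -0.61 to 0.82. In parthenote morulae pairs ran from -0.55 to 0.93 in the miR-200c experiment and from -0.73 to 0.97 in the miR-465c experiment. These are descriptions, and the 2 genes of each pair share an embryo's library, depth and amplification. The members compared were not the same at each stage, with 22 to 26 at the 2-cell and 4-cell stages and 31 or 32 in morulae. Most members also had higher counts in morulae, and the median over all gene pairs was not matched for level. The part of these differences in the higher morula medians was not tested.

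The embryos that stood apart were low in some members and high in others. Replicate 24 of the miR-465c experiment had 11.9 CPM of Sqle, against 161 CPM or more in the other morulae of its group. It also had 4.15 CPM of Cyp51, 4.74 CPM of Hmgcs1 and 2.37 CPM of Idi1, the lowest of the group in each, but 1323 CPM of Fdps and 814 CPM of Ebp, against group medians of 767 and 371 CPM. Replicate 1 of the miR-200c experiment had the lowest Insig1, Scd1, Scd2, Cyp51 and Sc5d of its group, with 24.5, 42.6, 22.5, 32.2 and 10.5 CPM, while its Fasn and Elovl6, at 239 and 452 CPM, lay above the medians of 184 and 399 CPM.

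Neither microRNA changed a member past the threshold at any dose or stage. In each of the 15 comparisons of injected with control embryos, 0 members passed edgeR's adjusted threshold. Over all genes 0.0% passed in 13 of them, and 0.0188% in each of the high-dose and mid-dose miR-200c-3p comparisons at the 4-cell stage. Comparisons within a stage share their control embryos.

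At an unadjusted p under 0.05 between 0 and 4 members were found in a comparison. With miR-200c-3p in parthenotes they numbered 1 of 31 at the low and 3 of 31 at the mid dose of the 2-cell stage, where 1.21% and 16.6% of all genes did so. At the 4-cell stage they numbered 1, 0 and 0 of 31 at the low, mid and high dose, against 3.64%, 6.17% and 4.45% of genes, and in morulae 0, 1 and 0 of 32, against 5.44%, 4.92% and 6.73%. In fertilized embryos given miR-200c-3p they were 1 of 29 at the 4-cell stage, against 2.71% of genes, and 4 of 32 in morulae, against 3.76%. With miR-465c-3p they were 1 of 30 at the 2-cell stage (0.971% of genes), 1 and 0 of 31 at the low and high 4-cell dose (3.09% and 3.12%), and 1 and 4 of 32 at the low and high morula dose (5.52% and 10.7%).

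With miR-200c-3p in 2-cell parthenotes, the member with the smallest p was Acly at the low dose (-0.41 ± 0.16, p = 0.013) and Hsd17b7 at the mid dose. Hsd17b7 had 25.4 to 393 CPM in mid-dose embryos (median 89.3), against 0 to 120 CPM in controls (median 56.7), a change of 0.76 ± 0.26 (p = 0.0053, adjusted p = 0.19). That comparison is the one in which 16.6% of all genes had an unadjusted p under 0.05, and 3 of 31 members did. Hsd17b7 carries a miR-200c-3p seed match, and its median was the higher with the microRNA. DESeq2 placed it past the threshold (0.73, adjusted p = 0.044), while with the share of counts in an embryo's 10 most abundant genes as a covariate the change was 0.22 (adjusted p = 1.0).

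At the 4-cell stage the smallest p belonged to Sqle at the low dose (-0.33 ± 0.17, p = 0.048), Acss2 at the mid dose (-0.68 ± 0.35) and Cyp51 at the high dose (0.69 ± 0.38). In parthenote morulae it belonged to Ebp at the low dose (0.36 ± 0.19), Srebf2 at the mid dose (0.39 ± 0.17) and Srebf1 at the high dose (0.29 ± 0.18). In fertilized embryos it belonged to Lss at the 4-cell stage (-0.43 ± 0.17) and Fads2 in morulae (-1.44 ± 0.56), where 1 control embryo had 249 CPM of Fads2 and the medians were 5.17 CPM with the microRNA and 5.67 CPM in controls. The adjusted p of these 8 ran from 0.80 to 1.0.

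The 5 members with a miR-200c-3p seed match lay on both sides of 0. In high-dose parthenote morulae the changes were 0.01 ± 0.20 for Sqle, -0.24 ± 0.16 for Hsd17b7, 0.12 ± 0.22 for Acaca, 0.08 ± 0.22 for Scd1 and 0.15 ± 0.24 for Scd2. Scd2, with a match to each microRNA, had 147 to 772 CPM in high-dose morulae (median 357), against 20.2 to 593 CPM in controls (median 299). In fertilized morulae Scd1 and Scd2 changed by -0.44 ± 0.21 (p = 0.043) and -0.44 ± 0.24 (p = 0.070), with Scd2 medians of 282 CPM with the microRNA and 425 CPM in controls. Neither passed adjustment.

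With miR-465c-3p the smallest p belonged to Pmvk in 2-cell parthenotes (-1.49 ± 0.62), Sc5d at the low 4-cell dose (1.45 ± 0.68), Sqle at the high 4-cell dose (-0.35 ± 0.20), Sc5d at the low morula dose (-0.43 ± 0.19) and Sqle at the high morula dose. In high-dose morulae Sqle ran from 64.5 to 587 CPM (median 187), against 11.5 to 773 CPM in controls (median 295), a change of -0.61 ± 0.24 (p = 0.011, adjusted p = 0.33). Without control replicate 24, which held the lowest Sqle, the change was -0.68 with an adjusted p of 0.19, and with the share of the 10 most abundant genes as a covariate it was -0.23 (adjusted p = 0.70). Sqle has no miR-465c-3p seed match in its 3′ UTR. Scd2 and Fads1, which have one, changed by -0.55 ± 0.24 (p = 0.028) and -0.25 ± 0.20 (p = 0.22).

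In that comparison the members lay on 1 side. Only 3 of 32 had a positive change, with a median of -0.25, where 49.4% of all genes were positive with a median of -0.004, and 4 members had an unadjusted p under 0.05 against 10.7% of genes. The summed level of the 33 members was 4383 ± 1438 CPM in high-dose morulae (n = 28), against 5214 ± 1335 CPM in controls (n = 22), with ranges of 2571 to 7911 and 3222 to 8011 CPM that overlapped almost wholly. Morula markers summed to 3266 ± 1627 CPM in high-dose morulae, against 4120 ± 1333 CPM in controls, and 2 of the 7 had a positive change, with a median of -0.40. Their part in the members' shift was not tested. The median stayed between -0.31 and -0.13 under the alternatives run.

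In fertilized morulae given miR-200c-3p, 5 of 32 members were positive with a median of -0.14 (-0.15 to -0.09 under the alternatives run), where 49.0% of all genes were positive with a median of -0.004, and here 5 of the 7 morula genes had a positive change. The summed level was 4270 ± 779 CPM with the microRNA, against 4879 ± 1340 CPM in controls (n = 23 each). Parthenote morulae given miR-200c-3p had 25, 23 and 19 of 32 members positive at the low, mid and high dose, with medians of 0.11, 0.08 and 0.02, where 56.7%, 48.4% and 48.4% of all genes were positive with medians of 0.03, -0.01 and -0.01. Low-dose miR-465c-3p morulae had 16 of 32 and a median of -0.01, against 49.3% and -0.004 for all genes. No interaction of the miR-200c-3p effect, high-dose morula minus 4-cell or fertilized minus low-dose parthenote at either stage, passed for a member (0 of 31 or 32, where at most 0.386% of genes did, with 0, 0 and 3 members at an unadjusted p under 0.05).

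**Figure D4:**
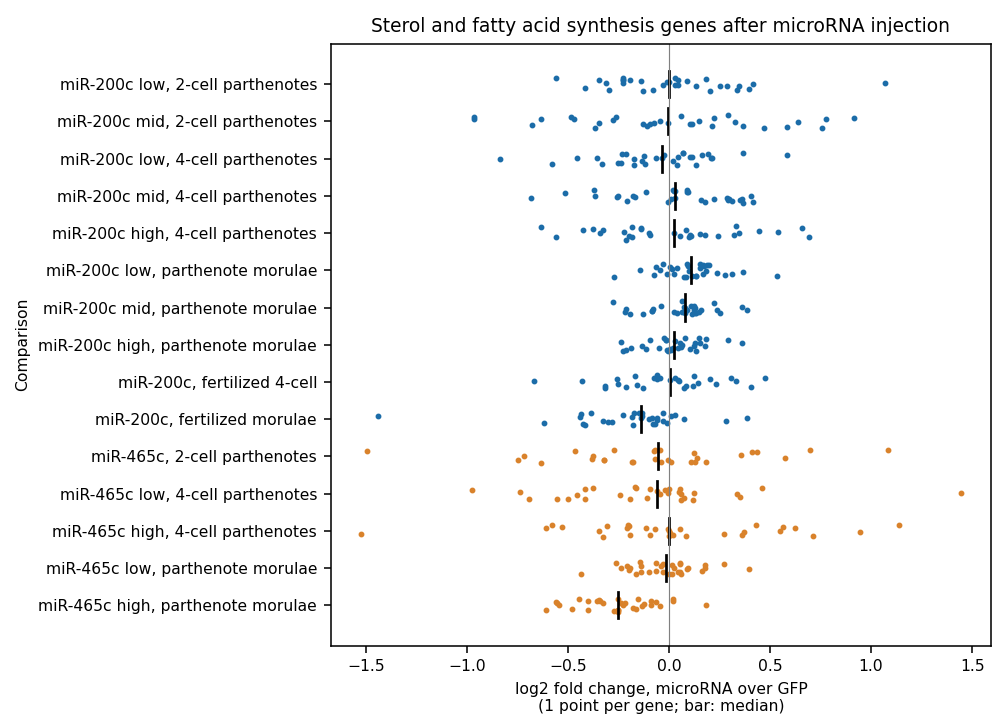
Log2 change, microRNA over GFP control, of each tested member in the 15 comparisons, 1 point per gene, with a bar at the median. Medians lie between -0.25 (miR-465c-3p, high dose, morula) and 0.11 (miR-200c-3p, low dose, morula), and no member passed the adjusted threshold in any of them.

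The Ago-REMORA assay gave another readout of the members at the 2-cell stage. Its values are in EPKM, a unit the headers name without defining, treated here as a measure of how much a transcript was edited. The groups held 27 embryos with the AGO2 editor and miR-200c-3p, 28 with the AGO2 editor and miR-465c-3p, 23 with the AGO2 editor only and 15 with the editor alone. Of the members, 12 had 3′ UTR editing and 13 had coding editing in at least 10 embryos and were tested (limma on log2(EPKM + 1)). A fold change on that scale understates the change of low values.

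Hmgcs1 and Insig1 were edited more when the editor was joined to AGO2. In the 3′ UTR Hmgcs1 had 7.09 ± 3.91 EPKM with the AGO2 editor (median 7.35, highest 15.1), against 1.197 ± 0.88 EPKM with the editor alone (median 1.30, highest 2.77), a change of 1.77 ± 0.26 (SE; adjusted p = 2.4e-07). Insig1 had 3.95 ± 3.06 EPKM and was above 0 in 23 of 23 embryos with the AGO2 editor, against 0.720 ± 0.955 EPKM and 7 of 15 embryos with the editor alone, a change of 1.49 ± 0.27 (adjusted p = 1.6e-05). So 2 of 12 members were higher, where 7.13% of 3619 genes were. Neither 3′ UTR holds a seed match to the injected microRNAs.

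Coding editing of Insig1 changed alike, with 4.34 ± 3.44 EPKM with the AGO2 editor, against 0.438 ± 0.495 EPKM with the editor alone (1.69 ± 0.29, adjusted p = 1.5e-05). For Hmgcs1 it was 3.92 ± 2.29 against 1.87 ± 1.09 EPKM (0.73 ± 0.22, adjusted p = 0.046), and this call was lost under each of the 4 alternatives (adjusted p from 0.061 to 0.11). These 2 are among 13 members tested, where 3.38% of 4078 genes were higher. Elovl6, edited in every embryo of both groups, had 6.44 ± 3.43 EPKM with the AGO2 editor and 7.79 ± 5.37 EPKM in its 3′ UTR with the editor alone, a difference of -0.14 ± 0.30 (adjusted p = 0.87). The amount of editor protein in each group is not given in the sources used here, and its part in the differences was not tested.

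Adding a microRNA to the AGO2 editor changed no member past the threshold, and no gene in either table (0.0% of 3619 and of 4078). Sqle, whose 3′ UTR holds a miR-200c-3p seed match, had 4.57 ± 4.33 EPKM with miR-200c-3p and was edited in 19 of 27 embryos, against 2.77 ± 4.04 EPKM and 10 of 23 embryos with the AGO2 editor only (0.76 ± 0.39, p = 0.056, adjusted p = 0.82). With miR-465c-3p, which has no match there, Sqle had 5.2045 ± 6.61 EPKM in 20 of 28 embryos (0.81 ± 0.39, p = 0.041, adjusted p = 0.74). The smallest member p with miR-465c-3p was that of Nsdhl, with 1.46 ± 2.46 EPKM against 0.141 ± 0.386 EPKM (0.65 ± 0.21, p = 0.0031, adjusted p = 0.55). Hmgcs1 3′ UTR editing was 5.27 ± 2.76 EPKM with miR-200c-3p and 7.19 ± 4.81 EPKM with miR-465c-3p, against 7.09 ± 3.91 EPKM with the AGO2 editor only, all within the spread of embryos.

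**Figure D5:**
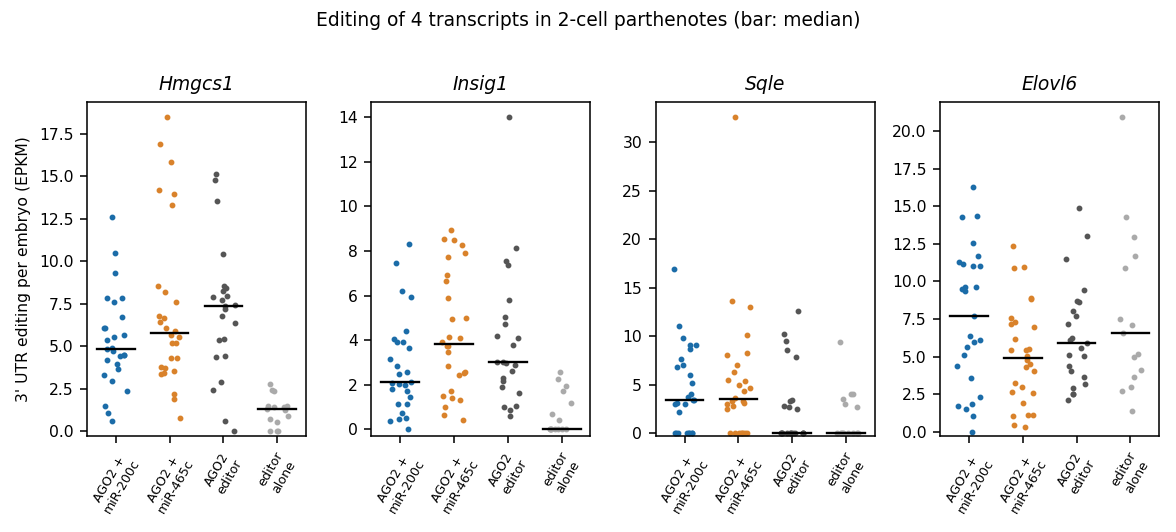
Editing in the 3′ UTR of Hmgcs1, Insig1, Sqle and Elovl6 (EPKM) in single 2-cell parthenotes with the AGO2 editor plus miR-200c-3p, the AGO2 editor plus miR-465c-3p, the AGO2 editor only and the editor alone. Each point is 1 embryo and each bar the median. Hmgcs1 reaches 2.77 EPKM with the editor alone and has a median of 7.35 EPKM with the AGO2 editor, while Elovl6 averages 6.44 EPKM with the AGO2 editor and 7.79 EPKM with the editor alone.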

How the data were processed

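RNA of individual embryos was sequenced by SMART-Seq with paired, unstranded reads, per the labels' protocols. The authors deposited estimated counts per gene (expected counts of RSEM on mm10, per the labels), not normalized, in 8 tables of 1 stage and embryo type each, and 95.9% of the values are whole. The submitters' processing notes also name STAR, featureCounts, cutadapt, FastQC, R 4.5.1 and DESeq2 1.48.2, with no role given. The editing tables are deposited as a score the authors call EPKM, defined in no header or label. Either editing table also holds 3 columns that could be tied to no sample by their labels, and these were left out.

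Counts were rounded and tested with edgeR 4.0.16 in R 4.3.3 (TMM, filterByExpr by group, quasi-likelihood, Benjamini-Hochberg over all genes, threshold 0.05), with 1 fit per stage and experiment for injections, per experiment for stages and per stage for embryo types. SE is that of the log2 change. EPKM was tested with limma 3.58.1 on log2(EPKM + 1) for genes above 0 in at least 10 embryos. Nothing states that embryos come from separate litters, and those of 1 experimental replicate share pooled eggs. The p-values therefore measure the spread between embryos and not between egg pools. DESeq2 1.42.0, other scalings, other filters, a replicate block, embryos with totals under 50% of their table's median left out and single embryos left out were alternatives. The replicate block groups embryos by the number in their titles and not by egg pool, so it does not correct for shared pools. On simulated counts (low-dose miR-200c-3p, 4-cell, 8632 genes) edgeR recovered 59% of 2-fold and 92% of 4-fold changes. The changed genes were drawn from those of at least 10 CPM, with independent embryos of the low-dose and control groups only. Recovery for genes below that level, such as Mvk, Sc5d and Stard4 at that stage, was not simulated. Totals were 404357 to 6774824 counts, and intervals cover these embryos only.

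The members and lists were chosen with earlier results of these data known. Of the genes named, all 33 members are given across the stages, and in each microRNA comparison the members past the threshold or else the 1 with the smallest p. Genes named from the other lists are among the 3 per list and step past the threshold with the largest change and at least 10 CPM in the higher group. Not all of these are named. Larger changes left out include Acsl5 (6.12) and Lpin1 (4.90) at the second step and Elovl7 (-4.30) at the first. Members with seed matches, and members printed beside these, were added after their values were seen. Other lists held 13 sterol, 22 fatty acid, 18 oxidation and 14 storage and efflux genes, of which Hacd1, Hacd2 and Hacd3 were not matched by symbol. Coordinates and 3′ UTRs are those of the mm10 annotation, and promoters and microRNAs those of RefSeq. Sperm libraries were not used here, and 1 gene of these lists is not reported here.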

Additional observations from a re-analysis of the deposited data

Results flagged for a closer look

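The change of Acat2 between the 4-cell stage and the morula differed between the parthenote controls of the 2 experiments by an interaction test, by -1.3726 on the log2 scale (miR-465c minus miR-200c experiment, SE 0.31, edgeR adjusted p = 0.0043). The change was 0.88 ± 0.29 in the miR-465c experiment and 2.28 ± 0.24 in the miR-200c experiment. The levels set apart were those of the 4-cell stage, with 141 ± 74.6 CPM in the miR-465c experiment and 49.2 ± 29.7 CPM in the miR-200c experiment, while morulae had 258 ± 138 and 239 ± 97.0 CPM. Of the 50-base words of Acat2, 39.1% also occur in Acat3. At the 4-cell stage Acat3 averaged 0.196 CPM in the miR-465c experiment and 0.438 CPM in the miR-200c experiment. The day of collection and the experiment cannot be told apart. With a replicate block, by the number in embryo titles and not by egg pool, the adjusted p was 0.070.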

How the results depend on the processing

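Of 268 counts of members under an alternative, 12 were beyond 1.5 times of the count reported, and of 1727 single-gene values 1663 kept their direction and side of the threshold, 42 were weaker, 7 stronger and 15 turned. Members called with the AGO2 editor over the editor alone in coding sequence fell to 1 under log2(EPKM + 0.1), log2(EPKM + 10), no filter on low values and the replicate block, where 2 are reported. DESeq2 called 1 member (Hsd17b7, 0.73) in mid-dose 2-cell embryos and the replicate block 1 (Dhcr7), against 0. The interaction of fertilized minus miR-200c parthenote stage change rose to 1 with the block and without shallow embryos, against 0, and that between parthenote experiments was 0 with the block, against 1. Members called between fertilized and parthenote 4-cell embryos numbered 5 under DESeq2, against 3, for the miR-200c experiment, and for the miR-465c experiment 7 under DESeq2 and 5 with its size factors in edgeR, against 3. For those between the parthenote experiments at the 4-cell stage DESeq2 gave 6 higher and 4 lower, against 3 and 4.

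The single-gene values that turned had not been called as reported. In parthenotes of the miR-200c experiment, under DESeq2, its size factors in edgeR and the replicate block, they were -0.24, -0.24 and -0.64 for Fads2 and -0.24, -0.24 and -0.15 for Scd1 (4-cell over 2-cell), -0.073, -0.073 and -0.14 for Sqle (morula over 2-cell), and 0.076, 0.076 and 0.24 for Acss2 (morula over 4-cell). Fads2 also gave -0.060 without shallow embryos, and Mbtps1 (morula over 4-cell) 0.044 under DESeq2 and 0.044 with its size factors. The values reported are 0.01, 0.04, 0.03, -0.09 and -0.12 in that order of genes. The cause was not tested. Of 39 values with 1 embryo left out, 31 kept their side and 8 missed the threshold. Same-numbered embryos correlated by medians of -0.06 to 0.13. In low-dose 2-cell parthenotes 12 of 23 pairs, and in injected fertilized morulae 11 of 22, exceeded 0.1. Not every pair did so in any comparison and no label ties the numbers to a shared source, so they were not taken as pairs. A replicate block changed no other count by over 1.5 times. The shallow-embryo setting left every embryo in 2 morula tables, and no block was fitted in the direct comparisons of embryo types, whose embryos come from different experiments, while interactions had it within each experiment. Below about 10 CPM depth limits every statement on Tm7sf2, Fads2 and Insig2.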
